A study of Mus musculus with 14 samples.

Results

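The lysosome genes described here were the members of the KEGG lysosome gene set, as given in the gene set file deposited with the study, that had a line in its mouse count table. The set held 119 mouse genes. After *Slc11a2* was left out by rule, 111 genes were in the table of 19525, and 7 were not listed there (*Ap3b2*, *Atp6v0d2*, *Ctsf*, *Ctsg*, *Ctss*, *Gm38426* and *Laptm5*). Beyond the need for a line in the table, no measured value decided which genes of the set were kept. Per the study's methods, genes without expression in enough replicates were excluded, so having a line depended on expression. The set itself was chosen with earlier results of these data known. By role, the 111 genes were 14 proteases, 17 glycosidases, 9 enzymes of sulfated sugars (sulfatases and heparan sulfate enzymes), 9 lipases, phosphatases or nucleases, 5 activators or lumenal binding proteins, 10 membrane proteins, 9 transporters or channels, 9 subunits of the proton pump, 6 proteins of mannose 6-phosphate tagging or sorting and 23 adaptor or clathrin coat subunits.

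Lysosomes are acidic, membrane-bound compartments in which cells break down proteins, lipids, nucleic acids and sugars delivered by endocytosis and autophagy. Their hydrolases are tagged with mannose 6-phosphate in the Golgi and carried by receptors, adaptors and clathrin coats, while a vacuolar proton pump acidifies the lumen. Many lysosome genes carry an E-box of the CLEAR type in their promoter, which the MiT/TFE transcription factors (*Tfeb*, *Tfe3*, *Mitf* and *Tfec*) bind, and the lysosome surface is also the place where the nutrient-sensing kinase mTORC1 is activated by amino acids.

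The study asked how aspartate, an amino acid abundant in lung interstitial fluid, changes breast cancer cells that grow in the lung. Messenger RNA was sequenced from the cytosolic lysate of spheroids of 4T1, a mouse triple-negative breast cancer cell line, after 5 days in lung-like medium, which mimics lung interstitial fluid. All spheroids carried a lentiviral short hairpin and were puromycin-selected polyclonal cells. The 4 groups were ASP shSCR (4 libraries), in which spheroids with a non-targeting hairpin received 700 µM aspartate, NoASP shSCR (3 libraries), in which the same spheroids received none, and ASP shGRIN2D (3 libraries) and ASP shDHPS (4 libraries), in which a targeting hairpin was combined with the same aspartate dose. Of the targets, *Grin2d* encodes a subunit of NMDA receptors, and *Dhps* encodes deoxyhypusine synthase, which starts the conversion of a lysine of eIF5A, a translation factor, to hypusine. Per the study's methods, this RNA was a portion set aside from lysates of a polysome experiment on independent spheroid pellets. The labels do not tie libraries to pellets, and if they were not separate cultures, p-values measure only the spread between these libraries. 1 hairpin group was measured per target, so loss of the target and other effects of its hairpin cannot be told apart. No knockdown was measured without aspartate.

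Library totals lay between 12731123 and 23231378 counts. *Dhps* lay between 5.46 and 9.08 CPM (counts per 1e6 counts, scaled by TMM) in ASP shDHPS and between 16.7 and 22.1 in ASP shSCR. *Grin2d* lay between 2.06 and 3.13 CPM in ASP shGRIN2D (37 to 47 counts) and between 3.23 and 4.16 in ASP shSCR (53 to 76 counts). It lay between 3.05 and 6.95 CPM in NoASP shSCR and between 2.21 and 4.59 in ASP shDHPS, and both ranges overlapped that of ASP shGRIN2D. Over all genes, ASP shSCR replicate 2 (-45.8) and NoASP shSCR replicate 2 (-33.5) had the lowest scores on the first principal component, which held 15.0% of the variance, and values without both are given where they ended a call of a named gene. The 7 epithelial markers summed to 4356 to 4590 CPM in the shSCR libraries and to 3384 to 4093 CPM in the knockdown libraries, without overlap. The macrophage and endothelial markers were near 0, with at most 0.972 CPM for the 4 of 8 macrophage markers in the table and at most 0.55 for 2 of 4 endothelial markers. Of 5 fibroblast markers 2 were in the table, *Pdgfra* at means of 26.6 to 33.1 CPM and *Dcn* with at most 1 count in a library.

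First, the level of the lysosome genes was assessed. They held 1.15% to 1.44% of the counts of a library. *Ctsl*, the cysteine protease cathepsin L, alone held 23.9% of these counts, followed by *Lamp1* (5.89%), *Ctsd* (5.02%) and *Psap* (4.65%). Length was taken as the median over a gene's annotated protein-coding transcripts, whichever of them were expressed, so ranks by length depend on the annotation. Per kilobase of transcript and over all libraries, *Ctsl* led with 3638 CPM per kilobase, followed by the proton pump subunit *Atp6v0c* (547), *Lamp1* (337), the aspartic protease cathepsin D (*Ctsd*, 316) and the tetraspanin *Cd63* (299). The last of these ranks were not distinct, since in ASP shSCR *Ctsd* stood at 287 ± 11.0, *Lamp1* at 279 ± 11.9 and *Cd63* at 270 ± 28.2 CPM per kilobase (SD, n = 4). *Atp6v0c* has a processed copy, *Atp6v0c-ps2*, that received up to 1830 counts in a library, so its share is less certain. At the low end, 9 genes had fewer than 50 counts in every library, and *Lamp3* had at most 3. In all, 98 of the 111 genes reached a mean of 5 CPM in ASP shSCR or ASP shDHPS.

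The summed level of the 111 genes differed between the groups. It was 11720.1, 11931, 12003 and 11900.4 CPM in ASP shSCR replicates 1 to 4 and 11778, 12402 and 11958 CPM in NoASP shSCR replicates 2 to 4, so that both shSCR groups overlapped. It was 12693, 13021 and 12808 CPM in ASP shGRIN2D replicates 1 to 3 and 14172, 13069, 14641 and 13820.3 CPM in ASP shDHPS replicates 1 to 4. Every knockdown library lay above every shSCR library, and every ASP shDHPS library lay above every ASP shGRIN2D library. The means were 11888.6 ± 120 CPM in ASP shSCR (SD, n = 4), 12045.9 ± 321 in NoASP shSCR (n = 3), 12840.3 ± 166 in ASP shGRIN2D (n = 3) and 13925.5 ± 662 in ASP shDHPS (n = 4). The order of the groups was the same without *Ctsl*, with means of 9091, 9199.6, 9868 and 10467 CPM. As shares of the RNA in a library, these sums cannot tell more lysosome gene RNA from less RNA of other genes. Nor can they tell a change in the number of cells of a type from a change in RNA per cell.

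**Figure D1:**
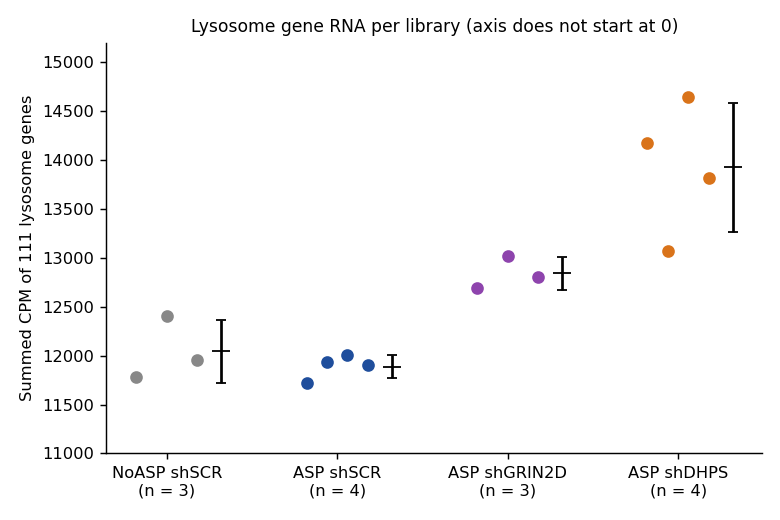
Summed CPM of the 111 lysosome genes (vertical axis, which does not start at 0) in each library of the 4 groups (horizontal axis). Points are libraries in replicate order, and the black mark is the mean with its SD. The shSCR libraries lie between 11720 and 12402, the ASP shGRIN2D libraries between 12693 and 13021 and the ASP shDHPS libraries between 13069 and 14641.

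By role, the summed level of the proteases was 4295 ± 150.2 CPM in ASP shSCR, 4714 ± 142 in ASP shGRIN2D and 5290 ± 456 in ASP shDHPS. The membrane proteins went from 1945 ± 38.5 CPM in ASP shSCR to 2229 ± 39.2 in ASP shGRIN2D and 2437 ± 143 in ASP shDHPS, and the proton pump subunits from 908 ± 45.1 to 1026 ± 16.6 and 1122 ± 59.3. In these 3 roles the libraries of ASP shSCR did not overlap those of either knockdown. Single genes held a large part of each sum. Means in ASP shSCR and ASP shDHPS were 2798 and 3459 CPM for *Ctsl*, 621 and 935 for *Lamp1* and 388 and 495 for *Atp6v0c*. The NoASP shSCR libraries reached 4767 CPM for the proteases, which overlapped both knockdowns, and 1026 CPM for the pump, which overlapped ASP shGRIN2D. By contrast, the adaptor and clathrin coat subunits summed to 1905 ± 31.9 CPM in ASP shSCR, 1896 ± 52.7 in ASP shGRIN2D and 1926 ± 33.9 in ASP shDHPS, and these ranges overlapped. Over the lysosome genes alone, 38.4% of the variance lay on the leading principal component. The ASP shDHPS libraries scored 0.998 to 2.54 on it, the ASP shGRIN2D libraries -0.251 to 0.272 and the shSCR libraries -2.03 to -0.246. The lowest scores were those of ASP shSCR replicate 2 (-2.03) and NoASP shSCR replicate 2 (-1.80). NoASP shSCR replicate 3 (-0.246) lay just above ASP shGRIN2D replicate 1 (-0.251). Over all genes, the ASP shDHPS libraries also had the highest scores on the first principal component (21.1 to 37.4).

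Next, the effect of aspartate was assessed by comparing ASP shSCR with NoASP shSCR. No lysosome gene passed the threshold, an adjusted p under 0.05 in edgeR's quasi-likelihood test with Benjamini-Hochberg adjustment over all genes, against 0% of all 19525 genes. None reached an unadjusted p under 0.05 in edgeR or in DESeq2, compared with 424 of all genes (2.17%) in edgeR. For 3 lysosome genes the libraries with and without aspartate did not overlap (2.70%), 2 higher and 1 lower with aspartate, against 2.71% of all genes. The median log2 fold change was -0.01, compared with 0.00 over all genes. Of the 97 genes with at least 5 CPM in the higher group, 95 had a log2 fold change within 0.2 of 0. The exceptions, named after their values were seen, were *Naglu* and *Entpd4* at 0.25 and 0.21. The median standard error was 0.11 on the log2 scale, so that changes of this size could not be resolved gene by gene.

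Among the genes with the smallest unadjusted p, *Fuca1*, the lysosomal α-fucosidase, was at 33.0, 27.6 and 30.6 CPM in NoASP shSCR and at 36.0, 34.5, 31.6 and 33.4 CPM in ASP shSCR, and the groups overlapped. *Hexa*, which encodes the α subunit of β-hexosaminidase, was at 8.51, 8.86 and 8.79 CPM without and at 10.3, 10.6, 9.07 and 9.82 CPM with aspartate. Here the groups did not overlap, yet the log2 fold change of 0.19 (SE 0.13) had an adjusted p of 1 in edgeR's test. *Ap3s1*, a subunit of the AP-3 adaptor, and *Lgmn*, which encodes the asparaginyl endopeptidase legumain, had log2 fold changes of 0.14 (SE 0.09) and -0.14 (SE 0.10), both with overlapping groups. *Lamp1* and *Ctsl*, among the most abundant members, stood at -0.06 (SE 0.08) and -0.02 (SE 0.09). Same-numbered shSCR libraries deviated together, and with the replicate number as a block no lysosome gene passed the threshold either.

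Next, the effect of *Dhps* silencing was assessed. In ASP shDHPS compared with ASP shSCR, 18 of the 111 genes rose (16.2%, against 1.65% of all genes) and 1 fell (0.901%, against 2.57% of all genes) in edgeR's quasi-likelihood test with Benjamini-Hochberg adjustment. The 18 were 5 proteases, 3 glycosidases, 3 membrane proteins, 2 transporters, 3 other hydrolases or helpers, 1 proton pump subunit and 1 clathrin subunit, and the gene that fell was an adaptor subunit. All libraries of ASP shDHPS lay above all libraries of ASP shSCR for 32 lysosome genes (28.8%, against 5.25% of all genes) and below them for 3 (2.70%, against 5.80%). The median log2 fold change of the 111 genes was 0.09, against 0.00 over all genes, and 73 were positive. Lysosome genes were more often well expressed than other genes, and among the 98 with at least 5 CPM, 18 were called (18.4%), against 7.08% of the 10346 genes of that level. The median log2 fold change of these 98 was 0.14, against 0.00.

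Among membrane proteins, *Lamp1* had the smallest p of all lysosome genes in this comparison. It encodes the heavily glycosylated protein that lines the lysosomal membrane. *Lamp1* was at 634, 582, 633 and 636 CPM in ASP shSCR replicates 1 to 4 and at 984, 911, 953 and 894 CPM in ASP shDHPS replicates 1 to 4, so that the groups did not overlap. The change was 1.51-fold, with a log2 fold change of 0.59 (SE 0.07) and an adjusted p of 9.13e-05 in edgeR's test. *Cd63*, a tetraspanin of late endosomes and lysosomes, went from 316, 246, 297 and 277 CPM to 386, 387, 436 and 357 CPM, again without overlap, and rose by 0.46 (SE 0.10, adjusted p = 0.00722). *Lamp2*, the other major LAMP protein, was at 194 ± 6.73 and 228 ± 12.8 CPM (SD, n = 4 each). The groups did not overlap, but the log2 fold change of *Lamp2*, 0.24 (SE 0.07), did not pass the threshold (adjusted p = 0.0727 in edgeR's test). It passed in 3 of 16 alternatives. These were DESeq2 (adjusted p = 0.00342) and edgeR's test with a filter on low counts (0.0384) or the replicate number as a block (0.0330).

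Promoter sequences of the genes with an E-box are shown because the results for *Lamp1*, *Lgmn*, *Atp6v0b*, *Ctsa* and *Glb1* can then be read beside the motif of the MiT/TFE factors. They are from RefSeq, assembly GRCm38.p6, each on the strand of its gene, and capitals mark the letters CACGTG or TCACGTGA, both of which read the same on either strand. Every TCACGTGA holds a CACGTG.
*Lamp1*: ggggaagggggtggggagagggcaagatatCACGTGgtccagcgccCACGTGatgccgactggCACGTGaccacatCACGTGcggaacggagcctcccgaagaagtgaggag
*Lgmn*: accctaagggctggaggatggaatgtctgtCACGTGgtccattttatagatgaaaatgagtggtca
*Atp6v0b*: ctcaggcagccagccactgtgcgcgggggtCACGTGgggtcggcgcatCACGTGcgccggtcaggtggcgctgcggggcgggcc
*Ctsa*: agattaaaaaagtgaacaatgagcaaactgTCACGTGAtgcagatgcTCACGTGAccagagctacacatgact
*Glb1*: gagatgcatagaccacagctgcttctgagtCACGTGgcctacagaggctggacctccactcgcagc
The windows lie at chr8:13159070-13159181 (plus strand, *Lamp1*), chr12:102439106-102439171 (minus strand, *Lgmn*), chr4:117887312-117887395 (minus strand, *Atp6v0b*), chr2:164833730-164833802 (plus strand, *Ctsa*) and chr9:114401000-114401065 (plus strand, *Glb1*), and each starts within 250 bases before the gene start and ends at most 30 bases after it. Of the 111 lysosome genes, 87 had an entry in the promoter table, whose windows reach from 250 bases before to 50 bases after a gene start. CACGTG was present in 22 of them (25.3%), against 8.09% of 27025 genes with an entry and 12.6% of 8174 such genes whose mean reached 5 CPM. TCACGTGA was present in 10 (11.5%), against 1.12% and 2.46%. *Lamp1* held CACGTG at 4 places, *Atp6v0b* at 2, and *Ctsa* held TCACGTGA at 2. Of the 15 genes with an entry that rose in ASP shDHPS, 6 (40.0%) held CACGTG, compared with 16 of the other 72 (22.2%). TCACGTGA was held by 2 of the 15 (13.3%) and by 8 of the other 72 (11.1%), which is nearly the same share. The median log2 fold change in ASP shDHPS was 0.20 over the 22 genes with the motif and 0.06 over the 65 genes without it. These are counts of letters, and binding was not measured.

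**Figure D2:**
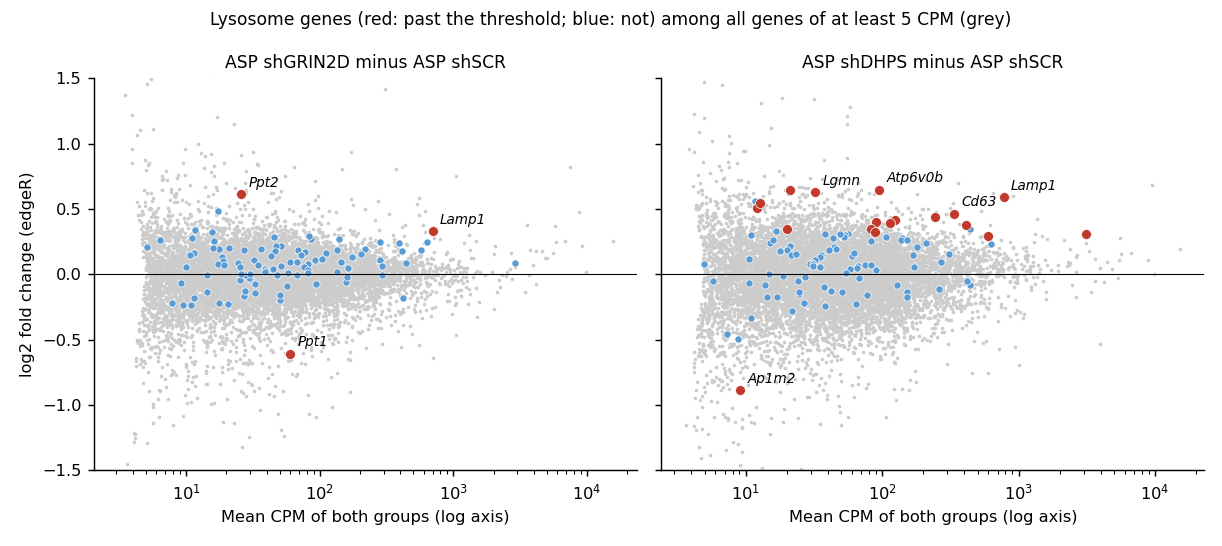
Log2 fold change (vertical axis) against mean CPM of both groups on a log axis (horizontal axis) for ASP shGRIN2D (left) and ASP shDHPS (right) compared with ASP shSCR. Grey points are all genes of at least 5 CPM in the higher group, with those beyond the axis limits not drawn, and coloured points are lysosome genes of that level, red where the adjusted p was under 0.05. The red points on the right lie above 0 apart from *Ap1m2* at -0.89, and those on the left are *Ppt2* at 0.61, *Lamp1* at 0.33 and *Ppt1* at -0.61.

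Proteases were the role with most genes that rose, 5 of 14, beside the 7.08% of all genes with at least 5 CPM that were called. *Lgmn* encodes legumain, which cleaves after asparagine and processes the cathepsins. It was at 25.7, 25.2, 25.0 and 26.0 CPM in ASP shSCR and at 39.7, 37.9, 41.0 and 39.0 CPM in ASP shDHPS. The groups did not overlap, with SDs of 0.468 and 1.29 CPM. *Lgmn* rose by 0.63 on the log2 scale (SE 0.09, adjusted p = 0.000465 in edgeR's test), which is 1.55-fold. The cysteine proteases *Ctsz* (cathepsin Z) and *Ctsb* (cathepsin B) rose from 205 ± 5.39 to 278 ± 20.4 CPM and from 360.4 ± 18.6 to 469 ± 33.3 CPM (SD, n = 4 each), by 0.44 (SE 0.08, adjusted p = 0.00343) and 0.38 (SE 0.08, adjusted p = 0.00675). In both, the groups did not overlap.

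*Ctsa*, the serine carboxypeptidase cathepsin A, also protects the sialidase *Neu1* and the β-galactosidase *Glb1* by binding both in 1 complex. *Ctsa* was at 71.0, 81.7, 79.4 and 80.8 CPM in ASP shSCR and 94.2, 93.8, 119 and 106 CPM in ASP shDHPS, and rose by 0.40 (SE 0.09, adjusted p = 0.0123 in edgeR's test). *Neu1* was at 15.4, 19.3, 15.9 and 14.9 and at 21.8, 24.8, 29.6 and 26.6 CPM, and rose by 0.65 (SE 0.12, adjusted p = 0.0028). *Glb1* was at 38.6, 44.2, 38.6 and 43.7 and 31.7, 31.6, 36.3 and 39.8 CPM. Thus, *Ctsa* and *Neu1* were higher in every ASP shDHPS library than in any ASP shSCR library, whereas the libraries of *Glb1* overlapped, with a log2 fold change of -0.24 (SE 0.10, adjusted p = 0.175).

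*Ctsl* rose by 0.31 (SE 0.09, adjusted p = 0.0446 in edgeR's test), from 2729.6, 2669.8, 2894 and 2898 CPM to 3601, 3027, 3806 and 3402 CPM. The groups did not overlap, and ASP shDHPS replicate 2 lay closest to the control libraries. *Ctsd* was at 581 ± 22.3 and 682 ± 55.4 CPM (SD, n = 4 each) with a log2 fold change of 0.23 (SE 0.08, adjusted p = 0.104). *Tpp1*, a tripeptidyl peptidase that is lost in a childhood neuronal ceroid lipofuscinosis, stood at 0.31 (SE 0.10, adjusted p = 0.0984). Of the 10 proteases with at least 5 CPM, 8 had a positive log2 fold change, with a median of 0.31.

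Among glycosidases, 3 of 17 rose, beside the 7.08% of all genes with at least 5 CPM that were called. As a group these genes were divided. *Hexa* was at 15.5, 13.8, 14.4 and 12.9 CPM in ASP shDHPS, above every ASP shSCR library, and rose by 0.51 (SE 0.12, adjusted p = 0.0126 in edgeR's test). *Gla*, the α-galactosidase lost in Fabry disease, went from 8.44, 11.6, 9.16 and 12.3 CPM to 13.3, 12.9, 17.7 and 16.1 CPM and rose by 0.54 (SE 0.14, adjusted p = 0.0283). *Gaa*, the acid α-glucosidase lost in Pompe disease, was at 0.06 (SE 0.12, adjusted p = 0.823). Of the 16 glycosidases with at least 5 CPM, 9 were positive and 7 negative, between -0.49 and 0.65.

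Other hydrolases and their helpers also rose. *Ppt1*, which removes palmitate from proteins and is lost in infantile neuronal ceroid lipofuscinosis, went from 69.2, 76.0, 70.1 and 73.8 to 102, 88.9, 92.6 and 84.2 CPM and rose by 0.35 (SE 0.08, adjusted p = 0.0209 in edgeR's test). *Psap*, the precursor of the saposins that present sphingolipids to hydrolases, rose by 0.30 (SE 0.08, adjusted p = 0.0357), from 539 ± 41.8 to 662 ± 43.4 CPM. *Npc2*, a lumenal cholesterol carrier, was at 0.15 (SE 0.10, adjusted p = 0.425).

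Of the 9 proton pump subunits in the set, 1 passed the threshold, beside the 7.08% of all genes with at least 5 CPM that were called. *Atp6v0b*, a proteolipid subunit of the membrane-embedded V0 ring, was at 82.9, 61.4, 79.9 and 72.3 CPM in ASP shSCR and at 128, 106, 127 and 105 CPM in ASP shDHPS. The groups did not overlap, and the rise of 0.65 (SE 0.11, adjusted p = 0.00185 in edgeR's test) was of the same size as that of *Neu1*. The nearest genes outside the threshold were also of the pump. *Atp6ap1*, an accessory subunit, had a log2 fold change of 0.28 (SE 0.08, adjusted p = 0.0522), and *Atp6v0c*, the other ring proteolipid, one of 0.35 (SE 0.10, adjusted p = 0.0529). *Atp6v0d1* was at 0.07 (SE 0.09, adjusted p = 0.689). All 8 subunits with at least 5 CPM had a positive log2 fold change, with a median of 0.27.

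Beyond the set, the list of V1 subunits and accessory proteins of the pump had 11 genes in the table, of which 2 rose and none fell. Of all genes with at least 5 CPM, 7.08% were called in ASP shDHPS. *Atp6v1b2*, which forms part of the catalytic head, went from 84.3 ± 4.03 CPM in ASP shSCR to 111 ± 6.60 in ASP shDHPS (SD, n = 4 each) and rose by 0.39 (SE 0.08, adjusted p = 0.0053 in edgeR's test). *Atp6ap2*, the prorenin receptor, went from 68.6 ± 3.53 to 105 ± 7.93 CPM and rose by 0.61 (SE 0.09, adjusted p = 0.000568). Neither group overlapped the other in these genes.

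Of 9 transporters or channels 2 rose, beside the 7.08% of all genes with at least 5 CPM that were called. Of 6 proteins of mannose 6-phosphate tagging or sorting none passed the threshold. *Npc1*, the cholesterol exporter lost in Niemann-Pick disease type C, was at 14.7 ± 3.47 and 18.5 ± 1.69 CPM (log2 fold change 0.33, SE 0.14, adjusted p = 0.212 in edgeR's test), and *Mcoln1*, a lysosomal calcium channel, at 0.13 (SE 0.10, adjusted p = 0.472). *M6pr*, the small mannose 6-phosphate receptor, was higher in every ASP shDHPS library, at 150.2 ± 7.15 against 125 ± 11.1 CPM, with an adjusted p of 0.0798. The large receptor *Igf2r* was at -0.11 (SE 0.13), *Gnptab*, the enzyme that adds the tag, at 0.01 (SE 0.08) and sortilin (*Sort1*) at 0.00 (SE 0.23), and all 3 had overlapping libraries. *Abcb9* (1.04, SE 0.28), *Laptm4b* (0.33, SE 0.09) and *Slc17a5* (0.34, SE 0.10), named after their values were seen, also rose, at adjusted p of 0.0334, 0.0427 and 0.0457. They encode a peptide transporter, a membrane protein and the sialic acid exporter sialin, respectively. *Abcb9* had means of only 1.36 and 2.86 CPM, and its libraries overlapped.

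Among the 23 adaptor and clathrin subunits, 1 rose and 1 fell, near the 7.08% of all genes with at least 5 CPM that were called. *Cltb*, the clathrin light chain b, went from 107, 82.4, 106 and 102 to 132, 128, 139 and 123 CPM and rose by 0.40 (SE 0.10, adjusted p = 0.0196 in edgeR's test). *Ap1m2* encodes the medium subunit of the epithelial AP-1B adaptor, which sorts proteins to the basolateral membrane. *Ap1m2* was at 10.7, 14.1, 11.1 and 11.5 CPM in ASP shSCR and at 7.62, 5.40, 6.37 and 6.14 CPM in ASP shDHPS, and fell by 0.89 on the log2 scale (SE 0.15, adjusted p = 0.0014). No ASP shDHPS library reached the lowest control library. Of the 7 epithelial markers, *Epcam*, *Krt19* and *Krt14* fell in the same comparison by 0.52, 0.88 and 0.54, none rose, and the summed markers lay between 3518 and 4093 CPM in ASP shDHPS and between 4409 and 4590 in ASP shSCR. Their part in the change of *Ap1m2* or of the other lysosome genes was not tested.

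**Figure D3:**
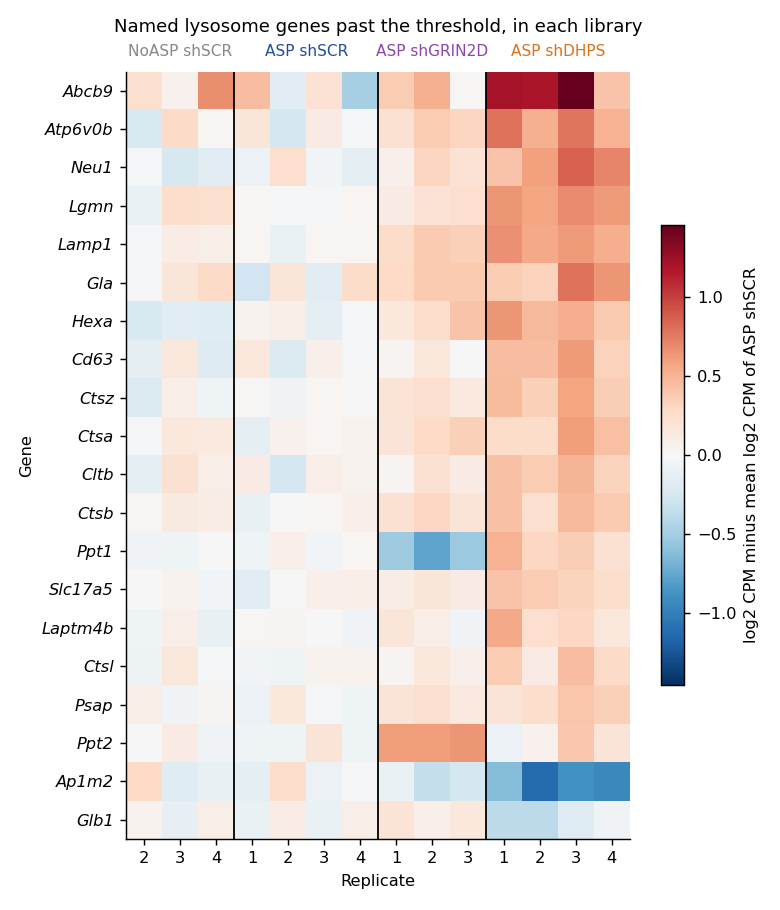
Log2 CPM of each library minus the mean log2 CPM of ASP shSCR (colour) for the named lysosome genes past the threshold in a comparison (rows), with libraries as columns grouped by condition and numbered by replicate. *Napsa*, at 0 in 1 library, is not drawn. The ASP shDHPS columns are red for the genes that rose, the ASP shGRIN2D columns are blue for *Ppt1* and red for *Ppt2*, and both shSCR groups are pale for most genes.

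In ASP shDHPS, the calls of *Lamp1*, *Lgmn*, *Ap1m2*, *Atp6v0b*, *Neu1*, *Ctsz*, *Ctsb*, *Cd63* and *Hexa* were kept in each of 16 alternative analyses. The count of lysosome genes called was 10 without ASP shDHPS replicate 3, and 13 to 18 without any other single library of either group. Calls lost when 1 library was left out were *Ctsa* (adjusted p = 0.0621 in edgeR's test) and *Cltb* (0.0712) without ASP shDHPS replicate 3, and *Cltb* also without ASP shSCR replicate 2 (0.0789). *Ppt1* lost its call without ASP shDHPS replicate 1 or 3 or ASP shSCR replicate 1 or 3 (0.0504 to 0.0573), and *Gla* without ASP shDHPS replicate 3 or 4 or ASP shSCR replicate 1 or 3 (0.0614 to 0.120). *Abcb9* lost its call without ASP shDHPS replicate 1, 2 or 3 or ASP shSCR replicate 2 or 4 (0.0666 to 0.126). *Psap* lost it without any library but ASP shDHPS replicate 1 and ASP shSCR replicate 2 (0.0560 to 0.122), *Ctsl* without any but ASP shDHPS replicate 2 (0.0548 to 0.150), and *Laptm4b* and *Slc17a5* without any but ASP shDHPS replicate 4 (0.0537 to 0.111 and 0.0597 to 0.133). Without both replicate 2 libraries of the shSCR groups, *Abcb9* (0.0884), *Ctsl* (0.100), *Laptm4b* (0.0615) and *Slc17a5* (0.0838) lost their calls. When just the 2 groups were fitted, *Gla* (0.0505), *Ctsl* (0.0932), *Psap* (0.0896), *Laptm4b* (0.0769) and *Slc17a5* (0.0990) lost theirs, as did *Psap* (0.0524) and *Slc17a5* (0.0579) with library size only and *Slc17a5* with a robust prior (0.0541).

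With the *Grin2d* hairpin, few lysosome genes passed the threshold. In ASP shGRIN2D compared with ASP shSCR, 2 of the 111 genes rose (1.80%, against 0.425% of all genes) and 1 fell (0.901%, against 0.732%) in edgeR's quasi-likelihood test with Benjamini-Hochberg adjustment. The ASP shGRIN2D libraries lay above all ASP shSCR libraries for 22 lysosome genes (19.8%, against 5.64% of all genes) and below them for 4 (3.60%, against 6.40%). The median log2 fold change was 0.08, against 0.00 over all genes, and 77 of 111 were positive. Among genes with at least 5 CPM, 3.06% of lysosome genes and 2.00% of all genes were called, shares that lie close together. This comparison shares its control libraries with that of ASP shDHPS. The summed epithelial markers lay between 3384 and 3647 CPM in ASP shGRIN2D and between 4409 and 4590 in ASP shSCR, and of the 7 markers *Krt18* fell, by 0.46 (adjusted p = 0.019 in edgeR's test). Their part in the lysosome gene levels was not tested.

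*Ppt1* and *Ppt2*, which encode the palmitoyl-protein thioesterases, moved in opposite directions. *Ppt1* was at 69.2, 76.0, 70.1 and 73.8 CPM in ASP shSCR and at 50.4, 42.2 and 49.6 CPM in ASP shGRIN2D. Every ASP shGRIN2D library was below every other library of the series, and *Ppt1* fell by 0.61 on the log2 scale (SE 0.09, adjusted p = 0.00109 in edgeR's test). *Ppt2*, whose product prefers palmitoyl-CoA and does not replace that of *Ppt1*, was at 19.4, 19.5, 23.1 and 19.4 CPM in ASP shSCR and at 30.9, 30.9 and 31.6 CPM in ASP shGRIN2D. It rose by 0.61 (SE 0.12, adjusted p = 0.00619), and again no library of any other group reached the ASP shGRIN2D range. Both calls were kept in all 15 alternative analyses. *Ppt1* overlaps *Cap1* on the opposite strand, and the sources do not state whether counting used the strand.

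The 3′ UTR of *Ppt1* is of interest because it holds the 7-base sequence TCATGAA at 2 places, 1172 bases apart (GENCODE annotation, assembly GRCm38). Of the annotated protein-coding transcripts of *Ppt1*, 1 holds both places. Both sites are shown, with these bases in capitals, at chr4:122857646-122857675 and chr4:122858818-122858847 on the plus strand.
*Ppt1* site 1: tatagcagagtTCATGAAaccacagctctt
*Ppt1* site 2: aatgactgtttTCATGAAagcaccattagc
This sequence was looked for because earlier results of these data had shown it in many genes lower in ASP shGRIN2D. Its share among genes called lower, *Ppt1* included, is therefore not an independent result. In any annotated transcript, TCATGAA was present in the 3′ UTR of 1774 of 13958 genes (12.7%), and, counting only genes with an annotated 3′ UTR, of 66 of 139 called lower in ASP shGRIN2D (47.5%) and of 6 of 79 called higher (7.59%). Among lysosome genes, 13 of 111 (11.7%) carried it, and of the 11 of these with at least 50 counts in a library only *Ppt1* was called, while 6 had a negative and 5 a positive log2 fold change, with a median of -0.06. *Sgsh*, a heparan sulfatase gene that also holds it at 2 places and was named after its values were seen, stood at -0.13 (adjusted p = 0.842 in edgeR's test). *Ctsl* and *Lamp2*, which hold it at 1 place each, stood at 0.09 and 0.15 without passing the threshold. Its part in the fall of *Ppt1* was not tested.

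*Lamp1* was at 749.7, 808 and 789.5 CPM in ASP shGRIN2D, above every shSCR library and below every ASP shDHPS library, and rose by 0.33 (SE 0.08, adjusted p = 0.0416 in edgeR's test). This call was lost without any single library of either group, with adjusted p of 0.0780 (without ASP shSCR replicate 1) to 0.200 (without ASP shGRIN2D replicate 2), and without both replicate 2 libraries of the shSCR groups (0.104). The proton pump subunit *Atp6ap1* had the next smallest p, at 118, 124, 139 and 125 CPM in ASP shSCR and 152, 151 and 155 CPM in ASP shGRIN2D. Its libraries did not overlap, but the log2 fold change of 0.27 (SE 0.09) had an adjusted p of 0.174. By role, 9 of 10 proteases and 7 of 8 pump subunits with at least 5 CPM had a positive log2 fold change, with medians of 0.19 and 0.18, whereas the medians were 0.01 over 16 glycosidases and 0.04 over 23 adaptor and clathrin subunits.

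**Figure D4:**
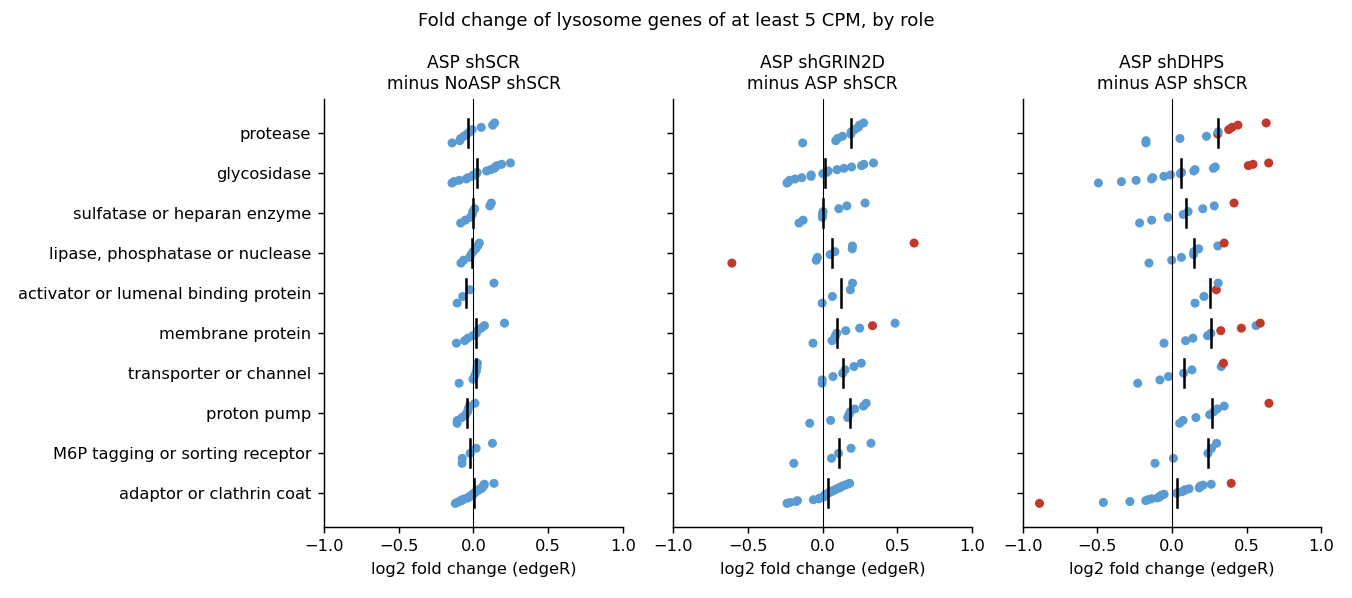
Log2 fold change (horizontal axis) of the lysosome genes with at least 5 CPM in the higher group, by role (rows), for aspartate (left), *Grin2d* silencing (middle) and *Dhps* silencing (right). Each point is a gene, red where the adjusted p was under 0.05, and the black bar is the median of the role. Protease medians were -0.03, 0.19 and 0.31 from left to right, and adaptor and clathrin medians 0.00, 0.04 and 0.03.

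To see where the knockdowns differed from each other, ASP shDHPS was compared directly with ASP shGRIN2D. Of the 111 genes, 3 were higher (2.70%, against 1.20% of all genes) and 4 lower in ASP shDHPS (3.60%, against 1.62%) in edgeR's quasi-likelihood test with Benjamini-Hochberg adjustment. Among genes with at least 5 CPM the shares called were 6.12% of lysosome genes and 4.77% of all genes, so that the lysosome genes lay near the background. *Ppt1* had the smallest p, at 92.0 ± 7.75 CPM in ASP shDHPS (SD, n = 4) and 47.4 ± 4.52 in ASP shGRIN2D (n = 3), a log2 difference of 0.96 (SE 0.09, adjusted p = 2.76e-06). *Lgmn*, at 27.6, 29.4 and 30.1 CPM in ASP shGRIN2D, and *Cd63*, at 291, 317 and 282 CPM, were also higher in ASP shDHPS, by 0.44 (SE 0.10, adjusted p = 0.0162) and 0.40 (SE 0.10, adjusted p = 0.0373). The groups did not overlap in these 3 genes.

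Lower in ASP shDHPS were *Ap1m2* by a log2 difference of -0.65 (SE 0.16, adjusted p = 0.0269 in edgeR's test), *Ppt2* by -0.47 (SE 0.12, adjusted p = 0.0277), *Glb1* by -0.38 (SE 0.10, adjusted p = 0.049) and *Napsa* by -2.62 (SE 0.68, adjusted p = 0.0363). *Glb1* was at 47.3, 43.4 and 45.7 CPM in ASP shGRIN2D, above its range in ASP shDHPS. *Napsa*, the aspartic protease napsin A, was hardly expressed, with means of 0.184 and 1.15 CPM. For *Lamp1* the difference of 0.26 (SE 0.08) had an adjusted p of 0.0971, and for *Neu1* that of 0.45 (SE 0.13) had one of 0.0541. The count of 7 was 1 without ASP shGRIN2D replicate 1 or 2, 2 without ASP shGRIN2D replicate 3 or ASP shDHPS replicate 2, and 3 without ASP shDHPS replicate 3, and *Ppt1* was kept in each of these. Each of the other 6 genes lost its call without at least 1 library, *Lgmn* at adjusted p of 0.0560 to 0.127 and the others at up to 0.226. *Glb1* also lost it with library size only (0.0671) and when just the 2 groups were fitted (0.0571).

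**Figure D5:**
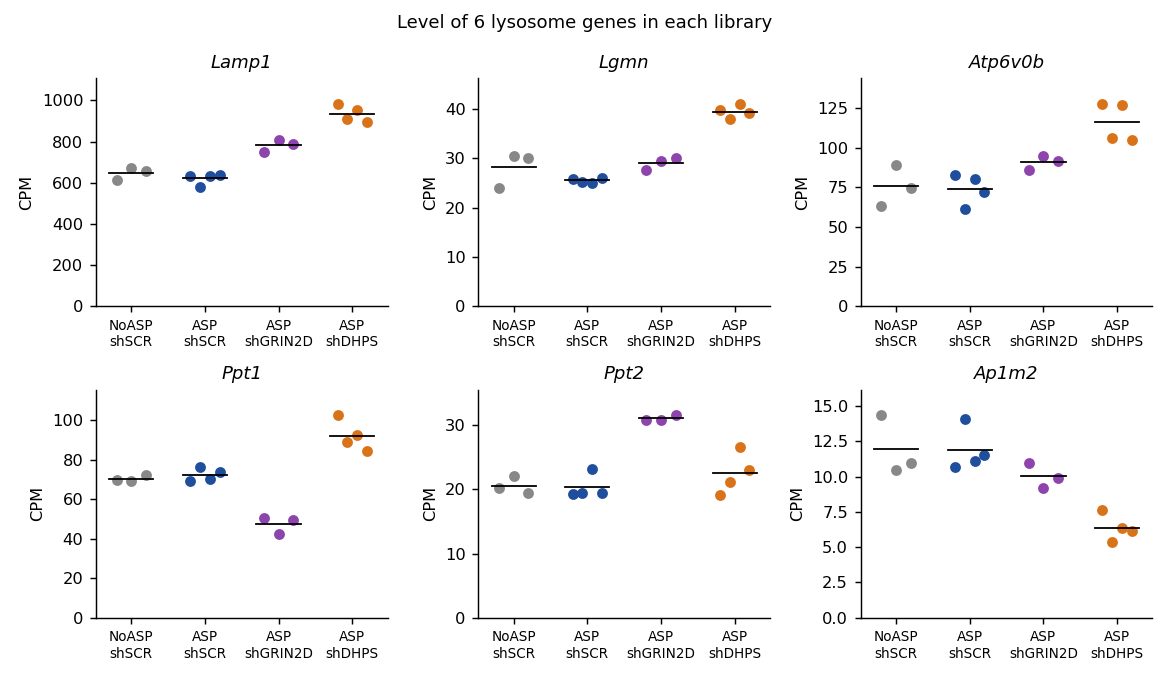
CPM (vertical axes, from 0) of *Lamp1*, *Lgmn*, *Atp6v0b*, *Ppt1*, *Ppt2* and *Ap1m2* in each library of the 4 groups (horizontal axes). Points are libraries and bars are group means. *Lamp1*, *Lgmn* and *Atp6v0b* are highest in ASP shDHPS, *Ppt1* is lowest and *Ppt2* highest in ASP shGRIN2D, and *Ap1m2* is lowest in ASP shDHPS.

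Finally, the transcription factors and other genes of the pathway were examined. Of the MiT/TFE factors, *Tfeb*, *Tfe3* and *Mitf* were in the table. *Mitf* was at 26.4 ± 2.42 CPM in ASP shSCR (SD, n = 4), 33.1 ± 4.89 in ASP shGRIN2D (n = 3) and 19.9 ± 0.897 in ASP shDHPS (n = 4). It fell by 0.41 in ASP shDHPS compared with ASP shSCR (SE 0.11, adjusted p = 0.0354 in edgeR's test) and differed between the knockdowns by a log2 difference of -0.74 (SE 0.12, adjusted p = 0.000663). The first of these calls was lost without any single library except ASP shSCR replicate 3 (adjusted p of 0.0508 to 0.119), and without both replicate 2 libraries of the shSCR groups (0.109). *Tfeb* was at 12.2 ± 0.439 and 11.1 ± 2.83 CPM and *Tfe3* at 80.4 ± 1.93 and 76.6 ± 4.77 CPM in ASP shSCR and ASP shDHPS, and their log2 fold changes of -0.14 (SE 0.16) and -0.07 (SE 0.08) did not pass the threshold.

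Of 16 genes of lysosomal nutrient sensing in the table, 1 rose in ASP shDHPS and none fell. Among all genes with at least 5 CPM 7.08% were called in that comparison, so 1 of 16 lies near the background. The gene that rose was *Rragc*, a Rag GTPase that recruits mTORC1 to the lysosome, at 105 ± 5.05 CPM in ASP shSCR and 129.5 ± 1.98 in ASP shDHPS (log2 fold change 0.31, SE 0.08, adjusted p = 0.0334 in edgeR's test). It lost the call without any single library except ASP shDHPS replicate 1 and ASP shSCR replicate 4 (0.0570 to 0.0977), without both replicate 2 libraries of the shSCR groups (0.0589) and when just the 2 groups were fitted (0.0609). None of 14 genes of lysosome fusion and positioning passed the threshold in ASP shDHPS, where their median log2 fold change was 0.05. Of 9 further genes known to carry CLEAR elements, 2 rose and none fell, beside the same 7.08% of all genes with at least 5 CPM. *Grn* (progranulin) rose by 0.51 (SE 0.08, adjusted p = 0.00139 in edgeR's test), from 260 ± 22.9 to 369.8 ± 28.6 CPM, and *Gpnmb*, a lysosomal glycoprotein, by 2.19 (SE 0.17, adjusted p = 2.6e-07). *Gpnmb* also rose in ASP shGRIN2D, by 1.15 (SE 0.18, adjusted p = 0.00122). With aspartate, no gene of these lists passed the threshold. *Gpnmb* is also expressed by macrophages. The summed macrophage markers lay between 0.525 and 0.972 CPM in ASP shDHPS and between 0.278 and 0.55 in ASP shSCR. None of the 4 macrophage markers in the table passed the threshold, and their median log2 fold change in ASP shDHPS was 1.09. *Ptprc* had at most 12 counts in a library, *Aif1* and *Csf1r* at most 7 and *Itgam* at most 5, and *Csf1r* was at 0 in every knockdown library and at up to 0.375 CPM in the shSCR libraries. Their part in the rise of *Gpnmb* was not tested.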

How the data were processed

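Messenger RNA of 14 spheroid libraries was analysed from the deposited count table. Per the labels and the study's methods, the authors prepared libraries with a stranded kit, trimmed reads with Trim Galore 0.6.6, aligned them to GRCm39 with STAR 2.6.1, estimated gene abundance with Salmon 1.4.0 and deposited counts rounded to whole numbers. The authors' tables of fold changes with p-values and of gene set scores were not used. Salmon divides reads among similar transcripts by estimation. Of the 111 lysosome genes, 59 overlap another annotated gene (46 on the opposite strand), and the strand setting of the counting is not given in the sources used here.

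Counts were tested with edgeR 4.0.16 in R 4.3.3 (TMM scaling, quasi-likelihood fit of 14 libraries, design by group alone). The Benjamini-Hochberg adjustment covered all 19525 genes, with a threshold of 0.05. Fold changes are on the log2 scale, with edgeR's default prior count. Standard errors (SE) were derived as the absolute log2 fold change divided by the square root of the test's F statistic. A prior count of 2 entered the log2 CPM of the principal components and of the replicate correlations, not the fold changes. A gene was also described by whether the CPM of 2 groups overlapped. The genes, the lists and the comparisons were chosen with earlier results of these data known. Named were the genes past the threshold (the 12 with the smallest p where more than 12 rose or fell), the 4 with the smallest unadjusted p and at least 5 CPM where fewer than 4 passed, a fixed set of examples of each role, the 5 with the highest level per kilobase, those with at most 3 counts, and genes of the other lists past the threshold. Some of these genes are not reported here. Lengths, 3′ UTRs and promoters are from GRCm38 annotations, which were used for names, lengths and sequence only. Code was tested on simulated data.

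Alternatives were DESeq2 1.42.0, other scaling, a filter on low counts, a robust prior, a fit of only 2 groups, the replicate number as a block, and leaving out libraries. The block within the 7 shSCR libraries was added after the data were examined. Whether replicate numbers pair the libraries was checked by centring each library on its group mean and correlating libraries of equal number across genes. In the aspartate comparison the pairs gave r = 0.514, 0.287 and 0.203, each over 0.1, and in the other comparisons at least 1 pair was below that. The meaning of the numbers is not given in the sources used here. With 12731123 to 23231378 counts per library, genes under 5 CPM were measured least precisely.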

Additional observations from a re-analysis of the deposited data

Results flagged for a closer look

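In groups of 4 libraries, 32 sets of CPM values were examined for a library far from the others, for the 15 genes named as past the threshold and for the summed level. A gap this large arises by chance in about 1 of 20 sets, and it arose in 2 of 32. For *Lamp1* in ASP shSCR, replicate 2 was lowest at 582 CPM, while the other 3 libraries lay between 633 and 636, so that the gap took up 0.961 of the range. For *Ppt2* in ASP shSCR, replicate 3 was highest at 23.1 CPM, while the other 3 lay between 19.4 and 19.5, so that the gap took up 0.968 of the range. Both genes stayed without overlap between ASP shSCR and ASP shGRIN2D.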

How the results depend on the processing

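No lysosome gene passed the threshold for aspartate in any of 16 alternatives (edgeR and DESeq2), and 0 to 4 had an unadjusted p under 0.05. Over all genes, 2 passed it with the replicate block and 64 with the block within the 7 shSCR libraries. For *Dhps* silencing the count of 19 became 31 with DESeq2 and 35 with the replicate number as a block, and 10 to 18 when 1 library was left out. For *Grin2d* silencing the count of 3 became 8 with DESeq2 and 4 with the block, and 2 without any single library. For ASP shDHPS compared with ASP shGRIN2D the count of 7 became 12 with DESeq2, 16 with the block, 12 without the replicate 2 libraries of both shSCR groups, and 1 to 7 without 1 library. In these 3 comparisons, libraries of equal replicate number gave r of -0.12 to 0.26. For *Dhps* silencing r was 0.258, 0.195, 0.201 and 0.0404 in replicates 1 to 4, so whether these libraries are paired was not settled. The cause of these shifts was not tested. Without *Ctsl* the summed CPM was 9091 in ASP shSCR, 9199.6 in NoASP shSCR, 9868 in ASP shGRIN2D and 10467 in ASP shDHPS.

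Among 1167 alternative values of 75 results of named genes, 1019 kept direction and side of the threshold, 111 no longer passed it, 18 newly passed it and 19 changed sign, the last for log2 fold changes near 0 that did not pass the threshold. For *Dhps* silencing, *Sort1* became -0.00240 with DESeq2, -0.00314 with RLE size factors, -0.0129 with library size only and -0.0161 with the replicate block, and *Gnptab* became -0.00333 with library size only. Without the replicate 2 libraries of both shSCR groups, *Igf2r* became 0.000164 for *Dhps* silencing, and *Cd63* became -0.00165 and *Npc2* 0.0706 for *Grin2d* silencing. Leaving out 1 library gave -0.0225 to 0.192 for *Gaa*, -0.0138 to 0.0358 for *Gnptab*, -0.234 to 0.0171 for *Igf2r* and -0.171 to 0.165 for *Sort1* with *Dhps* silenced. It gave -0.000865 to 0.117 for *Cd63* and -0.0532 to 0.0715 for *Npc2* with *Grin2d* silenced. The values that newly passed the threshold were of *Atp6ap1*, *Lamp2*, *Ctsd*, *M6pr* and *Tpp1* for *Dhps* silencing. For *Grin2d* silencing they were of *Atp6ap1*, *Ctsb* and *Ctsd*. Depth limits the genes under 5 CPM, such as *Abcb9* and *Napsa*, whose standard errors were 0.28 (*Dhps* silencing) and 0.68 (ASP shDHPS compared with ASP shGRIN2D).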
